A study of Homo sapiens with 24 samples.

Results

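The nuclear-encoded respiratory chain genes code for the subunits of complexes I to IV, cytochrome c and ATP synthase that are made in the cytosol, together with assembly factors that carry the same name stems. Members were taken as the catalog probes of a custom Agilent array whose design gene name begins with NDUF, SDHA to SDHD, UQCR, COX followed by a digit, or ATP5, or is CYC1 or CYCS. This rule found 70 probes for 58 genes among 17535 catalog probes for 15102 gene names. The probes were read in MRC5 cells, a human lung fibroblast line, that were either kept untreated (control) or exposed to 0.2 mM hydrogen peroxide during 2 hours (oxidative stress, OS). For each treatment the arrays held RNA of whole cells (total RNA) and of 3 pools of sucrose gradient fractions, called untranslated (fractions 1 to 9), low (10 to 14) and high (15 to 23). The 8 groups, control and OS for total RNA and for each pool, had 3 arrays each, and the 24 arrays lay on 3 slides that each carried 1 array of every group. The study's methods describe the 3 replicates as separate RNA preparations. On that description p-values measure the spread between preparations, estimated jointly over the 8 groups, and 3 arrays per group limit the precision. The labels give control untranslated replicates 1 and 2 the same number, so whether these are separate preparations cannot be told from the labels.

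The respiratory chain passes electrons from NADH through complex I, or from succinate through complex II, to complex III, cytochrome c and complex IV, and the proton gradient built on the way drives ATP synthase. Most subunits are encoded in the nucleus, translated on cytosolic ribosomes and imported, while a small set is encoded by mitochondrial DNA. An mRNA that carries more ribosomes sediments further into a sucrose gradient, so the high pool holds mRNAs on large polysomes and the untranslated pool those free of ribosomes or on a single one.

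Levels are given as quantile-normalized log2 processed signal. Because equal masses of RNA were labelled, a level in a pool is relative to the other RNA of that pool, and a difference is given in log2 units. Tests covered probes that exceeded the background clearly on all 3 arrays of 1 or more of the groups compared, and a probe was called at a Benjamini-Hochberg adjusted p from limma under 0.05. Shares of catalog probes called refer to the adjusted p, and counts at an unadjusted p have no catalog share beside them. The fibroblast label was checked against 9 marker genes, of which 4 (COL1A1, COL3A1, LUM and THY1) had a probe. All 4 were well above background on all 24 arrays. Of the markers of other cell types, the muscle gene MYOD1 and the endothelial gene VWF were well above background on 1 array each, and the epithelial gene EPCAM on 8. The endothelial gene CDH5 was so on 20 arrays, the surfactant gene SFTPC on 23, and the 3 probes of the leukocyte gene PTPRC on 23, 1 and 1. Upon OS none of the tested probes of these other cell types was called in total RNA by limma (SFTPC 0.99, adjusted p = 0.069), and their part in the results was not tested. ATF3, a stress-induced transcription factor, rose in total RNA by 4.70 to 4.83 on 3 of its 4 probes, and the fourth differed by 0.66 (adjusted p = 0.31, limma). In bulk RNA a change in the number of cells of a type and a change in RNA per cell cannot be told apart.

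Of the 70 probes, ATP5J and COX16 had an outlier mark on at least 1 array and were left out, which left 68 probes for 56 genes. Of the 70 probes, 58 were well above background on all 24 arrays and 0 on none. In the main setting none of the 7 comparisons tested the isoform gene COX4I2 (well above background on 4 arrays), 1 probe of the copper-insertion factor COX11 (11 arrays) or 1 of ATP5L2 (1 array). By role the 68 probes comprised 4 for core subunits of complex I, 13 for its accessory subunits and 3 for its assembly factors. There were 7 probes for complex II, 8 for complex III and 3 for cytochrome c. Complex IV had 9 probes for subunits, 6 for assembly factors and 1 for the related COX7A2L. ATP synthase had 3 probes for its catalytic F1 part and 10 for its membrane part and stalk. The remaining probe reads SDHAP1, a pseudogene of SDHA that the name rule takes in. For 10 genes several probes were present, which are reported apart.

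One array stands apart from its replicates. On OS low replicate 3, 95.4% of the catalog probes were well above background, against 43.6 to 67.8% on the other arrays, and its log2 values differed from those of the other 2 replicates with an SD of 1.98 and 1.99. It was kept, and values without it are given beside the results that move with it. The median level of the 68 members ranged from 13.07 to 13.35 on the 6 untranslated arrays, from 13.55 to 13.81 on the 6 low arrays and from 12.56 to 13.26 on the 6 high arrays.

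In control cells the first question is where in the gradient these mRNAs lie. Between the high and the low pool, 40 of 65 members tested were called lower in the high pool, where 25.5% of all catalog probes were called lower. In the other direction 11 members were called higher, against 25% of the catalog probes. The median difference of the members was -1.08, against 0.03 over the catalog probes tested. Other scalings moved the median of all catalog probes to between 0.23 and 0.53. Relative to it, the median of the members was -1.11 in the main setting and -0.94, -1.21 and -1.10 after normexp, quantile normalization over all probes and 75th percentile scaling. With 75th percentile scaling, 25 members were called lower, against 10.4% of the catalog probes, and 8 higher, against 32.4%. Within the 3 slides the median of the members was -1.06, -1.13 and -1.02. Of the 60 member probes well above background on all 9 control pool arrays, 40 had their highest mean in the low pool, 11 in the high pool and 9 in the untranslated pool. Over the 7217 such catalog probes, 25.9% were highest in the low pool. With the other scalings 38, 39 or 32 of the 60 were highest in the low pool, against 28.9, 29 and 30.1% of the catalog probes.

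The comparison of the high with the untranslated pool shares its control high arrays with the previous one. Here 32 of 63 members tested were called lower in the high pool, where 31% of the catalog probes were. Another 17 were called higher, against 42.2% of the catalog probes. This split depended on the scaling, with 23 higher and 28 lower after normexp or quantile normalization over all probes, 23 and 16 after 75th percentile scaling, and 30 and 23 with that scaling and OS low replicate 3 left out. The catalog shares moved with it, to 57.7% higher and 21.8% lower after normexp, 55.7 and 20.3% after quantile normalization over all probes, 61 and 9.6% after 75th percentile scaling, and 68.4 and 15.1% with that scaling and OS low replicate 3 left out. The median of the members was -0.51 against 0.35 over the catalog probes, and became positive (0.23, 0.25 and 0.66) with the other scalings, where that of the catalog probes was 0.73, 1.06 and 1.64. Relative to the catalog probes it was -0.86 in the main setting and -0.50, -0.81 and -0.98 in the others. Within the 3 slides it was -0.52, -0.42 and -0.57. Of the 49 called members, 2 changed sign after normexp or quantile normalization over all probes, NDUFAF4 (-0.42, then 0.15 and 0.20) and COX10 (-0.60, then 0.29 and 0.33). With 75th percentile scaling 7 did, these 2 (1.32 and 0.74), NDUFA5 (-1.06, then 0.60), NDUFB11 (-0.61, then 0.49) and the 3 probes of CYCS described with its shift. The call of COX10 was also lost without replicate 1 or 3 of control untranslated or replicate 1 or 2 of control high (adjusted p of up to 0.079). Those of 1 probe each of SDHA and SDHC (0.49 and 0.47) were lost without control untranslated replicate 3, and without control high replicate 1 and 3, respectively (up to 0.075 and 0.076).

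Single members lay at both ends of the gradient. The catalytic ATP synthase subunits alpha (ATP5A1, now ATP5F1A) and beta (ATP5B, now ATP5F1B) were high in the high pool. ATP5B read 16.19, 15.84 and 15.57 on the control high arrays, 13.04, 13.19 and 12.92 on the low arrays, and 11.96, 12.10 and 12.21 on the untranslated arrays. The 3 pools did not overlap, and the high pool exceeded the untranslated pool by 3.78 (SE 0.15, adjusted p = 1.9e-13, limma) and the low pool by 2.82. ATP5A1 differed by 2.35 and 2.44 in these comparisons. Also higher in the high than in the untranslated pool were NDUFS1, the largest core subunit of complex I (2.14), the complex I assembly factor NDUFAF1 (2.59), the Rieske iron-sulfur protein UQCRFS1 (1.73) and the core protein UQCRC1 (1.72) of complex III. COX15, which acts in heme A synthesis, was not well above background in the control untranslated pool, and was at least 1.75-fold higher in the high pool. That bound sets its mean against the lowest signals that were well above background on the untranslated arrays.

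The opposite position was found for several other subunits and for COX17, a copper chaperone of complex IV assembly. COX17 read 15.20, 15.16 and 15.20 on the control untranslated arrays and 10.96, 11.13 and 11.07 on the high arrays. The groups lay far apart, with a difference of -4.13 (SE 0.11, adjusted p = 7.3e-15, limma), and against the low pool it was -3.15. The 2 probes of ATP5J2 (now ATP5MF), subunit f of the ATP synthase membrane part, differed by -3.56 and -3.52 between the high and the untranslated pool. For UQCR10, a small subunit of complex III, the 2 probes gave -3.46 and -2.86. COX6A2, the muscle isoform of a complex IV subunit, gave -3.32, with levels of 8.49, 10.13 and 9.11 on the untranslated and 6.29, 5.88 and 5.60 on the high arrays. In the high minus low comparison, UQCR11 differed by -2.85, UQCR10 by -3.05 and -3.02, and NDUFA11, an accessory subunit of the complex I membrane arm, by -2.77. ATP5E, the epsilon subunit, was not well above background in the high pool and was at least 1.61-fold lower there than in the low pool.

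By complex, the median high minus low difference was -1.91 for the 13 accessory probes of complex I, of which 10 were called lower and 1 higher, and 0.15 for its 4 core probes, with 1 lower and 2 higher. It was -2.32 for complex III (6 lower, 2 higher), -1.84 for cytochrome c (3 lower), -1.50 for complex IV (6 lower) and -1.22 for the ATP synthase membrane part and stalk (6 lower). Complex II had a median of -0.09, with 3 probes called higher, all of SDHA, and 1 lower, of SDHD. Of these, 1 SDHA probe was lost without any array except control high replicate 3 (adjusted p of up to 0.15, limma) and another without control high replicate 1 (0.0645). The accessory probe called higher, NDUFB8, was lost without control high replicate 3 (0.0529). SDHAP1, called lower, was lost without any 1 of the 6 arrays (up to 0.14). The mitochondrial ribosomal proteins, also imported from the cytosol, had a median of -0.86 with 27 of 43 probes called lower and 6 higher, and the cytosolic ribosomal proteins -0.79 with 49 of 77 lower and 6 higher. By the pool with the highest mean, 46 of 75 cytosolic ribosomal protein probes were highest in the untranslated pool, against 9 of 60 respiratory chain and 5 of 39 mitochondrial ribosomal protein probes, and 20, 40 and 24 were highest in the low pool. For the cytosolic list this depended on the scaling, with 36 in the untranslated and 29 in the low pool after normexp, 32 and 32 after quantile normalization over all probes, and 56 and 9 after 75th percentile scaling. For the mitochondrial list it was 4 and 23, 4 and 23, and 0 and 26. No test of a difference between these lists was run.

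**Figure D1:**
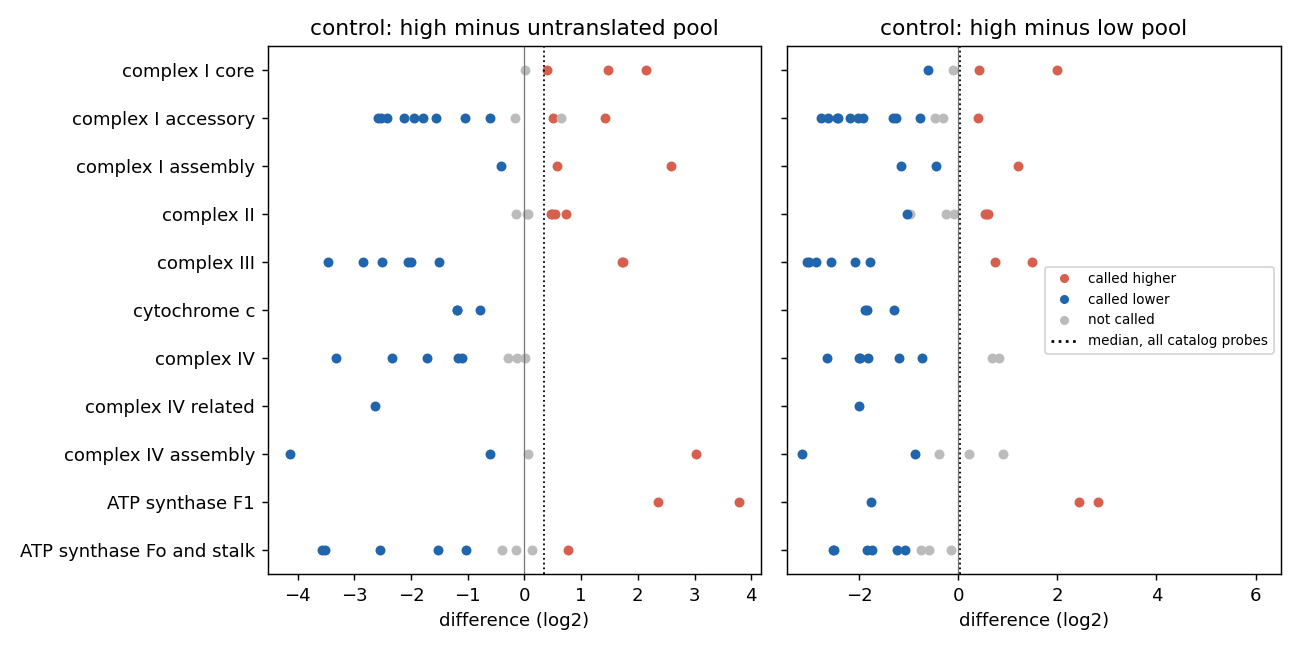
High minus untranslated pool (left) and high minus low pool (right) in control cells, in log2 units, for each member probe tested, by role; SDHAP1 is left out. A point is a probe, red where called higher, blue where called lower and grey otherwise, the thin line is 0 and the dotted line is the median of all catalog probes tested; complex III spreads from -3.46 to 1.73 on the left, and the F1 subunits ATP5A1 and ATP5B lie at 2.35 and 3.78.

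Upon OS few members were called in total RNA. Of 64 members tested in total RNA, limma called 0 higher, against 3.07% of the catalog probes, and 1 lower, against 3.06%. At an unadjusted p under 0.05, limma gave 3 higher and 2 lower, and the ANOVA without moderation also called 0 higher. The median difference was 0.09, against -0.02 over the catalog probes, 53 of the 64 were positive, and within the slides the median was 0.08, 0.07 and 0.16. After 75th percentile scaling it was -0.0005 against -0.19, so the difference from the catalog median was 0.11 in the main setting and 0.19 there. The probe called lower is the pseudogene SDHAP1. It read 8.82, 8.73 and 8.73 on the control and 7.06, 7.25 and 7.03 on the OS arrays. Every OS array lay below every control array, and the level fell by 1.65 (SE 0.25, adjusted p = 0.00021, limma). The 3 probes of SDHA itself differed by -0.31, -0.04 and -0.04 in total RNA and were not called (adjusted p from 0.18 to 0.99, limma).

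The 3 most positive differences in total RNA rested on 1 array. NDUFB5, an accessory subunit of complex I, read 3.41, 10.43 and 10.58 in control and 10.77, 10.75 and 10.79 upon OS, a difference of 2.63 (adjusted p = 0.22, limma). Only control total replicate 1 was low, where this probe was not well above background, and without it the difference was 0.27. One probe of SDHD, a membrane anchor of complex II, gave 2.74 and, without that array, 0.23. One probe of ATP5S, a factor coupled to the ATP synthase stalk, gave 1.87 and 0.05. These 3 were named after their values were seen, and their wide spread enters each comparison in which they were tested.

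The shift asks whether OS moved an mRNA along the gradient. The gradient of a probe is its level in the high minus that in the untranslated pool, and the shift is the gradient upon OS minus that in control, so a positive shift means relatively more in the high pool. Of 64 members tested, 21 had a positive shift that passed, against 8.04% of the catalog probes. A single member, ATP5B, had a negative one, against 8.03%. At an unadjusted p under 0.05 limma gave 33 and 3, with no catalog share given at that threshold. The median shift was 0.48 over the members and 0.02 over the catalog probes, and 52 of the 64 were positive. Over the 60 that were well above background on every array of the 4 groups the median was 0.49. The median over the 64 was 0.40, 0.44 and 0.35 with normexp, quantile normalization over all probes and 75th percentile scaling, and 0.37, 0.66 and 0.35 within the 3 slides. With slide as a block, 22 members had a positive shift that passed, against 8.21% of the catalog probes. With the replicate number as a block NDUFB8 no longer passed (adjusted p = 0.0531, limma).

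The number called depended on scaling and on single arrays. With 75th percentile scaling, which left 8 catalog probes higher and 6 lower, limma passed 0 members in either direction (1 positive and 0 negative at an unadjusted p under 0.05), and 4 positive and 2 negative members passed with that scaling and OS low replicate 3 left out, against 2.67 and 8.99% of the catalog probes. Of the 12 arrays in this comparison, leaving out control high replicate 1 or OS high replicate 2 gave 11 positive calls each, OS high replicate 3 gave 12, and control untranslated replicate 1 or OS untranslated replicate 2 gave 13, while 4.63 to 5.69% of the catalog probes had a positive shift that passed. OS high replicate 2 had the highest median level of the members among the high arrays, at 13.26 against 12.71 and 12.98 on the other OS and 12.56 to 12.76 on the control arrays. Control untranslated replicates 1 and 2 carry the same number in the labels. With these 2 averaged, 15 positive and 0 negative calls were left (2 negative at an unadjusted p under 0.05), against 5.8 and 7.04% of the catalog probes, and ATP5B, both probes of ATP5J2, NDUFAB1, NDUFB8, NDUFAF3 and COX6C no longer passed. Without OS low replicate 3, which enters only the estimate of the spread and the normalization, there were 29 positive calls and 1 negative, and the catalog shares also rose, to 16.7 and 14.4%. Of the 22 calls, 11 held whichever of the 12 arrays was left out. These were the 3 probes of SDHA, 2 each of CYCS and NDUFC2, and those of NDUFA11, NDUFA5, NDUFB4 and UQCR11.

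**Figure D2:**
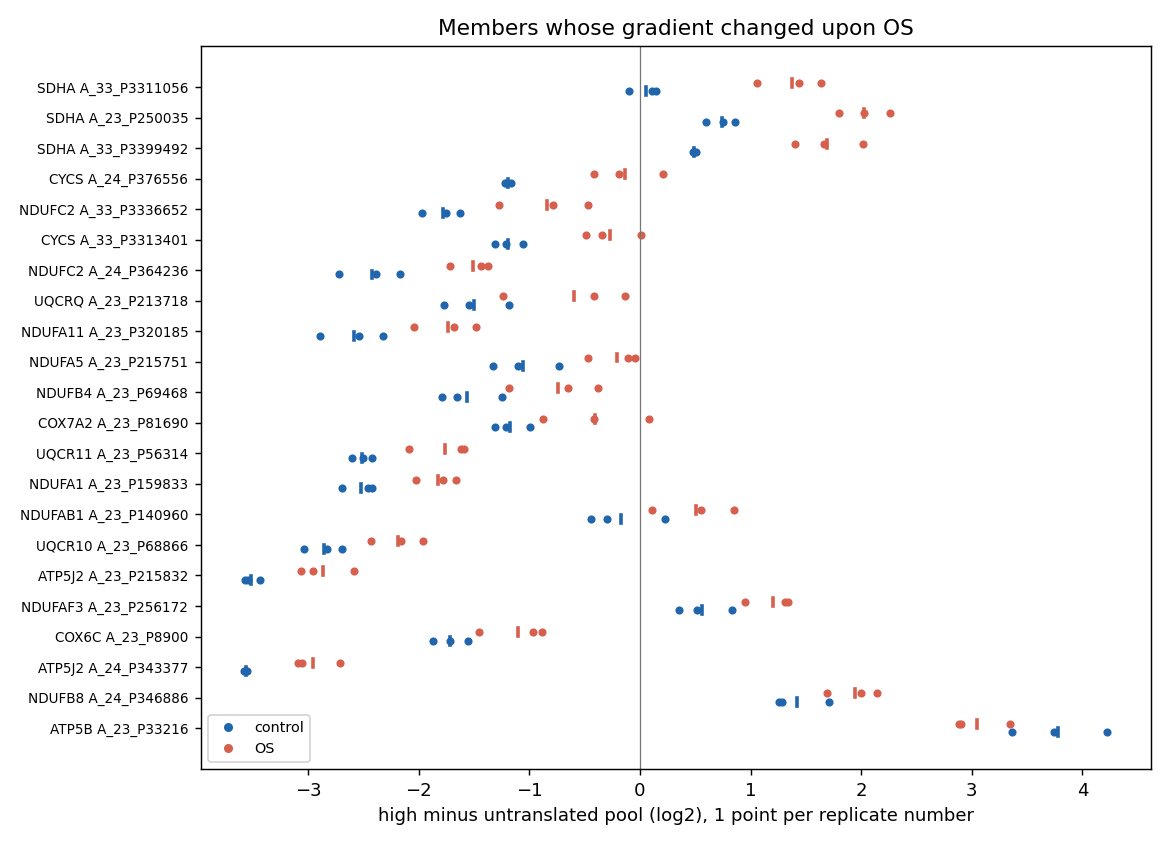
High minus untranslated difference (log2) for the 22 member probes whose shift passed the test. Each point is the difference of 2 arrays with the same replicate number, a pairing by number only, and each bar the mean of 3, with control in blue and OS in red; the OS mean lies to the right of the control mean except for ATP5B at the bottom, and the ranges of both treatments overlap for NDUFAB1, NDUFB8 and UQCRQ.

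SDHA, the flavoprotein of complex II that oxidises succinate, had the most positive shifts of the members. Its 3 probes lie at chr5:256725-256784, chr5:235411-236558 and chr5:240531-240590 on the plus strand of the array's design build GRCh37. On the first probe the untranslated arrays read 12.66, 12.55 and 12.66 in control and 12.03, 12.21 and 12.29 upon OS. The high arrays read 12.81, 12.66 and 12.56 in control and 13.67, 13.26 and 13.73 upon OS. All OS values were below control in the untranslated and above control in the high pool, without overlap. The difference was -0.45 (SE 0.12, adjusted p = 0.0092) in the untranslated and 0.88 (SE 0.12, adjusted p = 0.00013) in the high pool, with a shift of 1.33 (SE 0.18, adjusted p = 0.00013, limma). Without OS untranslated replicate 1 the adjusted p in the untranslated pool was 0.0555. The other 2 probes had shifts of 1.29 (adjusted p = 0.016) and 1.20 (adjusted p = 0.0034). The membrane anchors of complex II did not pass, with shifts of 0.02 and 0.53 for SDHC and 0.69 and 0.45 for SDHD. SDHA sequence is shared in part by pseudogenes such as SDHAP1, and whether their RNA contributes to the SDHA signals was not tested; the SDHAP1 probe had a shift of -0.02.

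CYCS codes for cytochrome c, the soluble carrier between complexes III and IV. On the probe with the larger shift, the untranslated arrays read 13.02, 13.06 and 13.19 in control and 12.35, 12.35 and 12.32 upon OS. The high arrays read 11.79, 11.85 and 12.03 in control and 11.93, 12.56 and 12.13 upon OS. The untranslated groups were well separated while the high groups overlapped. The level in the untranslated pool fell by 0.75 (SE 0.14, adjusted p = 0.00063), the high pool gave 0.31 (adjusted p = 0.31), and the shift was 1.06 (SE 0.20, adjusted p = 0.0028, limma). A second probe gave -0.74 in the untranslated pool and a shift of 0.92 (adjusted p = 0.0039). The third probe did not pass, with a shift of 0.47 (adjusted p = 0.27). In control cells all 3 were called lower in the high than in the untranslated pool (-1.20, -1.19 and -0.78), but were 0.38, 0.44 and 0.94 with 75th percentile scaling.

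Among the 13 accessory probes of complex I, 8 had a shift that passed and all 8 were positive, with a median of 0.70 over the 13. NDUFC2, a subunit of the membrane arm, had shifts of 0.91 (SE 0.17, adjusted p = 0.0019) and 0.94 (SE 0.20, adjusted p = 0.0058, limma) on its 2 probes. On the first of them the untranslated arrays read 11.77, 11.50 and 11.36 in control and 10.96, 10.85 and 10.99 upon OS, all lower. For NDUFA11 the high minus untranslated gradients, taken between arrays of the same replicate number, were -2.89, -2.54 and -2.33 in control and -2.04, -1.69 and -1.48 upon OS. Each OS gradient exceeded each control gradient in this pairing, which the labels do not tie to a common preparation, and the shift, which limma fitted without pairing, was 0.85 (SE 0.19, adjusted p = 0.0069). Positive shifts were also found for NDUFA5, a subunit of the matrix arm (0.85), NDUFB4 (0.82), NDUFA1 (0.70), NDUFAB1, the mitochondrial acyl carrier protein (0.68), and NDUFB8 (0.53). NDUFA6 (0.71, adjusted p = 0.051), NDUFA3 (0.34), NDUFA12 (0.21), NDUFB5 (-0.05) and NDUFB11 (-0.07) did not pass. Of the 4 core probes, with a median shift of 0.15, limma called 0 (2 positive at an unadjusted p under 0.05). They were NDUFS7 (0.47), NDUFS8 (0.37), NDUFS1 (-0.08) and NDUFV2 (-0.17). Of the assembly factors, NDUFAF3 had a shift of 0.63, and NDUFAF1 and NDUFAF4 of 0.27 and 0.58 did not pass.

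In complex III, 3 of 8 probes had a positive shift that passed. UQCR11 gave 0.75 (SE 0.15, adjusted p = 0.0046, limma), UQCRQ, the ubiquinone-binding protein, 0.90, and 1 of the 2 probes of UQCR10 0.67. Its other probe gave 0.46. The core protein UQCRC1 (-0.42), the Rieske protein UQCRFS1 (-0.35), UQCRH (0.31) and UQCRB (0.14) did not pass. In complex IV, COX7A2 (0.77) and COX6C (0.61) passed, whereas COX7B (0.54), COX6B1 (0.40), COX5B (0.02) and COX5A (-0.12) did not. The isoform genes COX6A2 (0.39) and COX6B2 (-0.66) and the related COX7A2L (0.37) did not pass. COX6B2 was well above background on 1 of 3 untranslated arrays of each treatment. Of the 5 assembly factor probes of complex IV in the test limma called 0 (1 positive at an unadjusted p under 0.05). Only 3 of them hold a measured shift, COX17 at 0.48 (adjusted p = 0.076), COX10 at 0.49 and COX11 at 0.65. COX15 and COX18 entered the test through other groups and were not well above background on any untranslated array.

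ATP synthase went both ways. ATP5B was the only member with a negative shift that passed. Its gradients by replicate number were 4.23, 3.75 and 3.36 in control and 3.35, 2.91 and 2.89 upon OS, and in this pairing the lowest control value lay just above the highest OS value. The shift was -0.73 (SE 0.21, adjusted p = 0.036, limma). It no longer passed when control untranslated replicates 1 and 2 were averaged (adjusted p = 0.073). ATP5A1 did not pass (-0.47, adjusted p = 0.19). In the membrane part the 2 probes of ATP5J2 had shifts of 0.65 and 0.61. Of the 2 genes measured for subunit c, ATP5G1 had a shift of 0.60 (adjusted p = 0.062) and ATP5G2 of 0.16. ATP5L (0.57), ATP5L2 (0.23), ATP5F1 (0.11) and the 2 probes of ATP5S (0.30 and 0.49) did not pass either, and ATP5E was not tested.

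Of the 22 calls, 11 were lost without at least 1 of the 12 arrays, while each shift kept its sign and stayed within 1.5 times its size. Without 1 array, ATP5B ranged from -0.88 to -0.57, the 2 probes of ATP5J2 from 0.54 to 0.74 and from 0.53 to 0.70, NDUFB8 from 0.47 to 0.63 and COX7A2 from 0.59 to 0.98. The calls of ATP5B, NDUFAB1 and NDUFAF3 were lost without replicate 1 or 2 of control untranslated or of control high, and without replicate 2 or 3 of OS untranslated or of OS high (adjusted p of up to 0.12, 0.11 and 0.093). NDUFB8 was lost without replicate 1 or 2 of any of the 4 groups (up to 0.12). NDUFA1 was lost without control high replicate 1, control untranslated replicate 2, OS high replicate 2 or 3, or OS untranslated replicate 3 (up to 0.081), and UQCR10 without the same arrays other than control untranslated replicate 2 (up to 0.068). UQCRQ was lost without control untranslated or control high replicate 1, OS untranslated replicate 2, or OS high replicate 2 or 3 (up to 0.069), and COX7A2 without these or control high replicate 2 (up to 0.066). COX6C kept its call only without control high replicate 3 or OS high replicate 1 (up to 0.12 otherwise), and both probes of ATP5J2 only without OS high replicate 1 (up to 0.14).

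**Figure D3:**
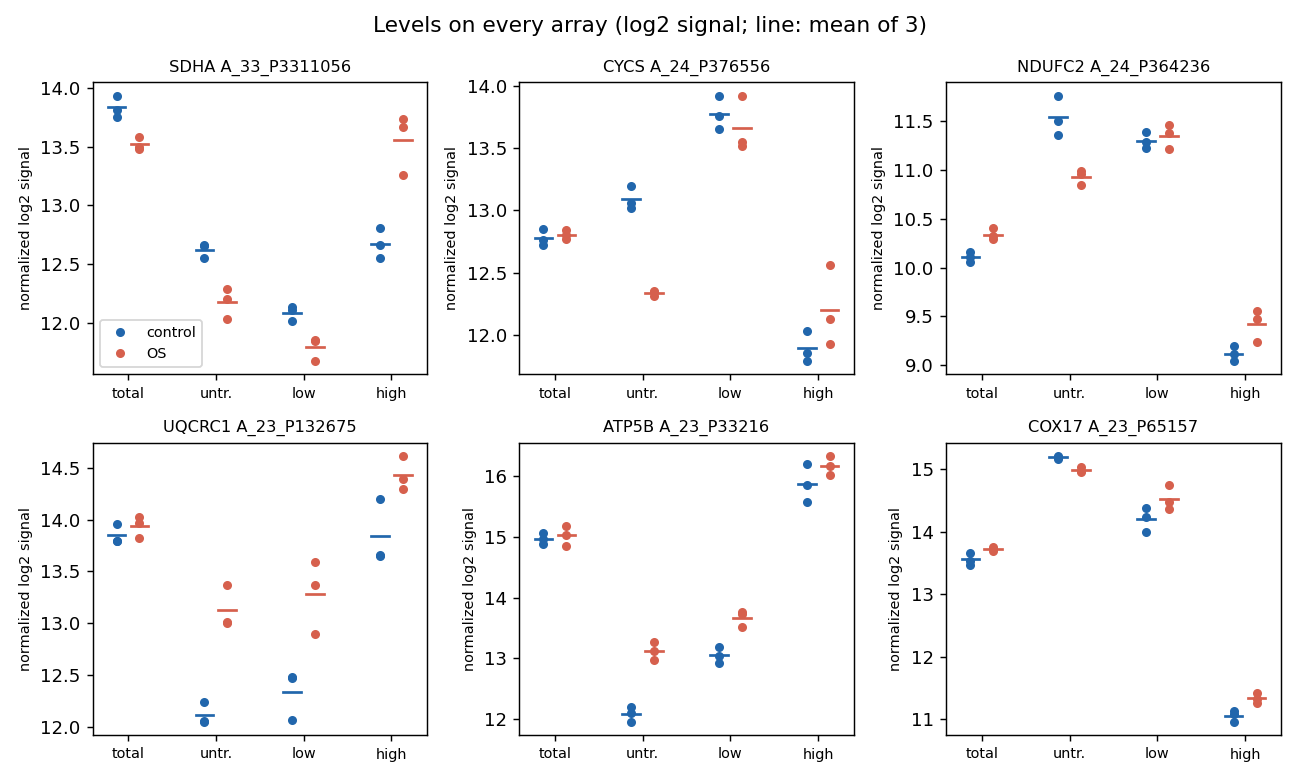
Quantile-normalized log2 signal on every array for a probe each of SDHA, CYCS, NDUFC2, UQCRC1, ATP5B and COX17 in total RNA and the untranslated (untr.), low and high pools. Points are arrays, lines the mean of 3, with control in blue and OS in red; the axes start at different values, and in the untranslated pool OS lies below control for SDHA, CYCS, NDUFC2 and COX17 and above it for UQCRC1 and ATP5B, where COX17 did not pass the test.

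The shift is the difference between the changes in the 2 pools, and the same arrays give the change in each pool on its own. Of 61 member probes tested in both pools, 3 were called lower in the untranslated and higher in the high pool, 2 of SDHA and 1 of NDUFC2. The share of catalog probes that met both conditions was not computed, so this count has no background beside it. NDUFB8 differed by -0.05 in the untranslated and rose by 0.47 in the high pool, and ATP5B rose by 1.03 in the untranslated pool and differed by 0.30 in the high pool (adjusted p = 0.38, limma). In the untranslated pool 11 of 61 members tested fell upon OS, against 15.7% of the catalog probes, and 3 rose, against 15.8%. The shares of 18% and 4.92% thus set the fall near the background and the rise below it. The median was -0.23 against -0.04 over the catalog probes, and -0.22, -0.17 and -0.28 within the slides. With 75th percentile scaling limma passed 0 members in either direction (3 higher and 0 lower at an unadjusted p under 0.05), and 3 higher and 5 lower passed with that scaling and OS low replicate 3 left out, against 16.1 and 11.1% of the catalog probes. With only that array left out, 3 rose and 17 fell, against 22.3 and 25.5% of the catalog probes. Besides SDHA, CYCS and NDUFC2 on 2 probes each, those that fell were COX10, which acts in heme A synthesis (-0.84), NDUFA5 (-0.59), NDUFAF4 (-0.45), UQCR11 (-0.40) and UQCR10 (-0.36). The call of UQCR10 was lost without any 1 of the 6 arrays, with an adjusted p of up to 0.14, that of the second NDUFC2 probe without any but OS untranslated replicate 1 (up to 0.15), and that of NDUFAF4 without OS untranslated replicate 2 (0.10). The second SDHA probe (-0.49, with overlapping groups) was lost without replicate 1 or 2 of either group (up to 0.22) and with slide as a block (adjusted p = 0.0505). With control untranslated replicates 1 and 2 averaged, 8 members fell, against 11.8% of the catalog probes. UQCR10, the second NDUFC2 and the second SDHA probe then no longer passed (adjusted p = 0.086, 0.066 and 0.11, limma).

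The 3 that rose are core subunits of complex III and of the F1 part. ATP5B read 11.96, 12.10 and 12.21 in control and 12.97, 13.12 and 13.27 upon OS, a rise of 1.03 (SE 0.15, adjusted p = 5.2e-05, limma). UQCRC1 read 12.05, 12.05 and 12.24 in control and 13.01, 13.00 and 13.36 upon OS, a rise of 1.01 (SE 0.18, adjusted p = 0.0005, limma). ATP5A1 read 13.53, 13.54 and 13.92 in control and 14.35, 14.64 and 14.56 upon OS, a rise of 0.86 (SE 0.14, adjusted p = 0.0002, limma). In each of the 3 all OS arrays exceeded all control arrays, and each call held whichever array was left out. In total RNA the same probes differed by 0.05, 0.09 and -0.03 and were not called.

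In the low pool 5 of 65 members rose upon OS, against 4.42% of the catalog probes, and 3 fell, against 5.45%. The median was 0.01 against -0.18 over the catalog probes, and without OS low replicate 3, 0.04 against -0.03. Within the slides it was 0.02, 0.14 and -0.12. The same 3 subunits rose, with UQCRC1 at 0.94 (12.48, 12.47 and 12.07 in control, 13.37, 12.89 and 13.59 upon OS), ATP5B at 0.62 and ATP5A1 at 0.56, and both probes of ATP5J2 at 0.48. SDHAP1 fell by 1.31 and COX10 by 0.79. Without OS low replicate 3 the COX10 difference was -0.45. The third call was that of COX18, an insertion factor of complex IV. It was well above background on 3 control low arrays but on 1 of 3 OS low arrays, where it read 5.00, 4.29 and 3.39, so the fitted difference of -1.26 (-0.86 without OS low replicate 3) is not a measured size. Its call was lost with slide as a block (adjusted p = 0.0597). Only the calls of UQCRC1 and SDHAP1 held whichever array was left out. ATP5B was lost without control low replicate 1 or 3 (adjusted p of up to 0.10), ATP5A1 without any control low array (up to 0.12), and ATP5J2, COX10 and COX18 without any of these or OS low replicate 3 (up to 0.20, 0.13 and 0.19). Without control low replicate 1, 2 or 3 the calls were 1, 2 and 1 higher and 1 lower each, without OS low replicate 1 or 2 they were 6 and 5 higher and 6 lower each, and without OS low replicate 3 they were 3 and 1. The catalog shares in the first 3 fits were 2.5 to 3.24% higher and 2.33 to 2.89% lower, in the next 2 they were 7.63 and 8.6% higher and 18.9 and 21.2% lower, and in the last 5.86 and 4.69%. With 75th percentile scaling, which moved the median of all catalog probes to -1.01 and that of the members to -1.20, limma called 0 higher (0 at an unadjusted p under 0.05) and 6 lower, and all 5 that rose changed sign, with UQCRC1 at -0.34, ATP5B at -0.69, ATP5A1 at -0.73 and the 2 probes of ATP5J2 at -0.90 and -0.88. The catalog shares were 1.4% higher and 19.6% lower. With that scaling and OS low replicate 3 left out, both medians were -0.26, with 0 higher (1 at an unadjusted p under 0.05) and 2 lower, against 2.8 and 6.72% of the catalog probes.

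In the high pool 8 of 64 members rose upon OS, against 3.57% of the catalog probes, and limma called 0 lower, against 2.83%. At an unadjusted p under 0.05 limma gave 31 higher and 1 lower, with no catalog share given at that threshold. At an adjusted p under 0.05 the ANOVA without moderation called 18 higher and 0 lower, against 4.93 and 4.18% of the catalog probes. The median was 0.27 against -0.01 over the catalog probes, with 56 of 64 positive, and 0.15, 0.47 and 0.15 within the slides. The 8 were 2 probes of SDHA (0.88 and 0.72), NDUFA11 (0.55), NDUFC2 (0.51), COX7A2 (0.51, with overlapping groups), NDUFB8 (0.47), NDUFA1 (0.47) and the core subunit NDUFS8 (0.33). NDUFB8, NDUFA1 and NDUFS8 lie outside the rule for named genes here and are named after their values were seen. Only the SDHA probe at 0.88 was called whichever array was left out. That at 0.72 was lost without replicate 3 of either group (adjusted p of up to 0.066), NDUFA11 without control high replicate 1 or OS high replicate 3 (up to 0.11), and NDUFB8 without control high replicate 1 or 2 or OS high replicate 2 (up to 0.086). NDUFC2 and COX7A2 were lost without replicate 1 or 2 of control or replicate 2 or 3 of OS (up to 0.20 and 0.25), and without OS high replicate 2 the COX7A2 difference was 0.33. NDUFA1 was lost without any array but OS high replicate 1 (up to 0.26) and NDUFS8 without any but control high replicate 3 (up to 0.15). Without control high replicate 1 or 2 there were 3 calls each, without OS high replicate 1 there were 18, without OS high replicate 2 there were 4 and without OS high replicate 3 there were 2. In these fits 2.11 to 3.43% of the catalog probes rose. Normexp gave 5, quantile normalization over all probes 4 and 75th percentile scaling 0 (0 at an unadjusted p under 0.05), against 3.01, 2.67 and 0.857% of the catalog probes. That scaling with OS low replicate 3 left out gave 1 higher and 1 lower, against 3.46 and 3.9%. With only that array left out, 20 rose, against 7.03% of the catalog probes. With control untranslated replicates 1 and 2 averaged, which changes only the estimate of the spread here, NDUFA1 and COX7A2 no longer passed (adjusted p = 0.0556 and 0.0519). UQCRC1 read 14.20, 13.66 and 13.65 in control and 14.61, 14.29 and 14.39 upon OS, a difference of 0.60 that did not pass (adjusted p = 0.071, limma).

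**Figure D4:**
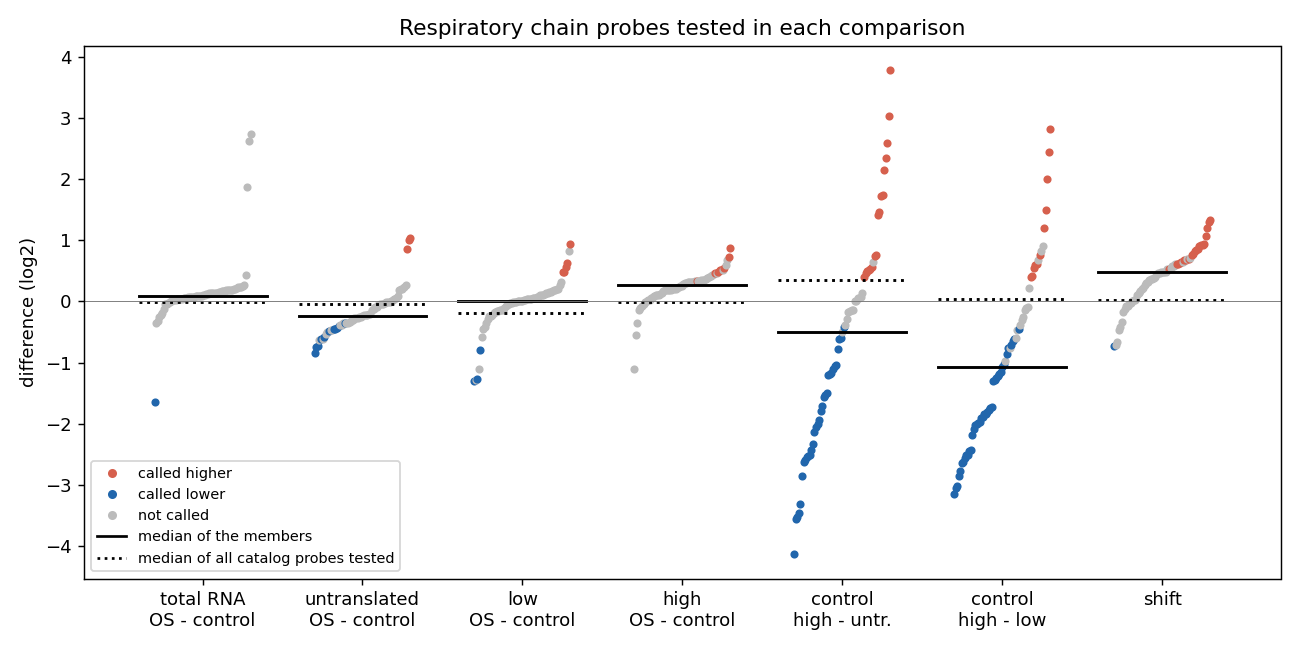
Difference (log2) of each member probe tested in the 7 comparisons, ordered by size within each; shift is the high minus untranslated difference upon OS minus that in control. Red points were called higher, blue lower and grey not called, with the median of the members as a full line and that of all catalog probes tested as a dotted line; the medians are 0.48 and 0.02 for the shift and -1.08 and 0.03 for high minus low in control.

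Promoters of the members are shown because many are known to bind nuclear respiratory factor 1 (NRF1), and to give the sequence near the start of genes with a positive shift. Of the 58 genes, 46 matched a promoter in the RefSeq table for GRCh38.p14, covering 250 bases before to 50 after the start, of 27305 genes in all. The letters GCATGCGC, searched on both strands, were found in 12 of the 46 (26.1%) and in 3.68% of all genes. Of the 46, 13 had a positive shift that passed, and 3 of these held the letters. Other genes with such a shift had no matched promoter and were not searched. The longer form GCGCATGCG, each match of which contains the shorter one, was found in 8 (17.4%) against 2.34%, and in 2 of the 13. The ETS letters CCGGAAG were found in 15 (32.6%) against 12.2%, and in 3 of the 13, the YY1 letters AAGATGGCG in 6 (13%) against 2.14%, and in 1, and the E box CACGTG in 5 (10.9%) against 8.77%, and in 2. A match is a stretch of letters and not a measured site, and the windows were picked after the matches were seen. Each window has 30 bases, written 5′ to 3′ on the gene's strand with the match in capitals; GCGCATGC is the shorter NRF1 form on the other strand, and CTTCCGG the ETS form. The CYCS window lies at chr7:25125411-25125440 (minus strand), with the match 169 bases before the start, and that of NDUFA5 at chr7:123557958-123557987 (minus), 158 before. The NDUFB4 window is chr3:120596166-120596195 (plus), 159 before, and that of COX17, the member with the most negative high minus untranslated difference, chr3:119677504-119677533 (minus), 116 before. The ETS windows are NDUFA1 at chrX:119871774-119871803 (plus), 47 before, and UQCRQ at chr5:132866577-132866606 (plus), 54 before.
CYCS: catgctcgccaGCATGCGCgcgcaggtcct
NDUFA5: gtatgcccatcGCGCATGCgtcaatttttc
NDUFB4: aagagcacttcGCGCATGCgcatatcaccg
COX17: cgggcctccttGCGCATGCgctgaaggggg
NDUFA1: ttccgtcgcttCTTCCGGagccgtacgtgg
UQCRQ: aatggtatctcCCGGAAGttacctcacgac

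Set beside the 2 lists of ribosomal proteins, the shift of the respiratory chain members had a median of 0.48. That of the mitochondrial ribosomal proteins was 0.33 (9 positive and 2 negative calls of 42) and that of the cytosolic ribosomal proteins -0.33 (2 and 26 of 76). In the high pool the cytosolic ribosomal proteins had a median of -0.26, with 1 probe higher and 27 lower, and the mitochondrial ones 0.11, with 1 and 1. In the untranslated pool their medians were 0.07 (13 higher, 1 lower of 76) and -0.18 (2 and 8 of 39). Of all catalog probes, 8.04 and 8.03% had a positive and a negative shift that passed. In the high pool 3.57% were higher and 2.83% lower, and in the untranslated pool 15.8 and 15.7%. With 75th percentile scaling 9 catalog probes were called lower in the high pool and 6 had a negative shift. Those totals lie below the 27 and 26 of the cytosolic list in the main setting. The lists were set side by side without a test of their difference.

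Other genes of the mitochondrion were read from lists. Of 20 import genes, 13 had a probe, and limma called 5 of 14 probes with a positive and 0 with a negative shift (8 and 0 at an unadjusted p under 0.05), with a median of 0.58; TIMM8A, an intermembrane space chaperone, gave 0.85. Fitted values of 12 of the 14 were positive. The 2 negative ones did not pass, TOMM40, the channel of the outer membrane, at -0.21 and the import receptor TOMM70A, which was well above background on 0 of 3 control and 1 of 3 OS untranslated arrays, at -1.30 (adjusted p = 0.62 and 0.41, limma). Of assembly factors outside the name rule, 3 of 11 probes had a positive shift that passed, with ATPIF1, the ATP synthase inhibitor, at 0.90, and limma called 0 negative (1 at an unadjusted p under 0.05). In all, 6 of the 11 were positive, and the lowest value was that of 1 probe of LRPPRC, a regulator of mitochondrial mRNA (-0.78, adjusted p = 0.066). The 3 citric acid cycle genes measured, CS, IDH3A and SUCLG1, had a median of -0.67, with SUCLG1 at -0.75 called. CS, citrate synthase, rose in the untranslated pool by 0.90. The genes of mitochondrial DNA expression and biogenesis had a median shift of 0.17 over 13 probes, and the 3 mitochondrially encoded subunits measured (ND4L, ND5 and ATP8) 0.12. In these lists limma called 0 (1 positive and 1 negative, and 0, at an unadjusted p under 0.05). In control cells those 3 were lower in the high than in the untranslated pool, by a median of -4.43, while the citric acid cycle genes were higher by 2.16.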

How the data were processed

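The authors deposited, per the file headers, Feature Extraction 10.7.3.1 output with the intensity of every spot, background already subtracted in the processed signal; spot flags (other values, 0 or 1) are deposited beside it. A table of log2 values deposited by the authors lay within 0.00145 of quantile normalization over all probes, with a median of 4.474 in every column. Its direction is that of signal. The header names GRCh37 as the design build.

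Following the methods, log2 processed signal was quantile-normalized separately for catalog (mRNA) and custom (lncRNA) probes. Probes marked as outliers on 1 or more arrays (178) were dropped, leaving 17448 catalog and 43911 custom probes; 0 spots were saturated, and spots of a probe were averaged. limma 3.58.1 (R 4.3.3, with the data.table package, version 1.17.8) fitted 8 groups over 24 arrays, with 7 contrasts and Benjamini-Hochberg adjustment over tested probes of both kinds. The methods state that anomalous replicates were removed without naming them, and all arrays were kept. With 3 arrays against 3, an exact permutation test could not go below 0.1. The steps were tested on simulated data.

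Of the 70 member probes, 66 were matched to RefSeq by accession and 4 by symbol; 11 genes carry a newer symbol. Named genes are, per comparison, the 4 most positive and 4 most negative called members whose groups do not overlap, and a set of 25 genes, 16 of which have a probe; NDUFV1, NDUFA4, NDUFA4L2, SDHB, CYC1, COX4I1, COX6A1, COX7A1 and ATP5G3 have none. From each other list 1 gene in each direction is named. Other members and list genes are named to account for the calls and for each complex, after their values were seen. Whether shift gradients overlap was judged with arrays paired by replicate number. Members and lists were chosen with earlier results of these data known. Lists were ribosomal proteins, import, assembly factors outside the name rule, citric acid cycle, mitochondrial DNA expression and biogenesis, mitochondrially encoded subunits, cell type markers and treatment response (ATF3, and EGR1, which differed by 0.86 in total RNA, adjusted p = 0.11, limma). Alternatives were normexp (offset 50), quantile normalization over all probes, 75th percentile scaling, stricter detection, blocks, ANOVA without moderation, averaging of control untranslated replicates 1 and 2, and leaving out arrays. A planned description by coding length was not made, and coding lengths were not used here.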

Additional observations from a re-analysis of the deposited data

Results flagged for a closer look

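For 22 member probes the effect of OS differed between the high and the untranslated pool by the interaction contrast in limma, which is the shift. In complex I these were NDUFA1 (0.70), NDUFA11 (0.85), NDUFA5 (0.85), NDUFAB1 (0.68), NDUFB4 (0.82), NDUFB8 (0.53), NDUFC2 (0.91 and 0.94) and the assembly factor NDUFAF3 (0.63). In complex II they were the probes of SDHA (1.29, 1.33 and 1.20). In complex III they were UQCR10 (0.67), UQCR11 (0.75) and UQCRQ (0.90), and in complex IV COX6C (0.61) and COX7A2 (0.77). Cytochrome c (CYCS) gave 1.06 and 0.92, ATP5J2 gave 0.65 and 0.61, and ATP5B gave -0.73, the single negative value.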

How the results depend on the processing

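For named members, 70 values passed in the main setting, and other settings gave 664 values for them. Of these, 581 kept their direction and side of the threshold, 72 kept the direction but no longer passed, and 11 reversed. Named values that did not pass in the main setting are outside this count. Reversals arose with 75th percentile scaling, where the low pool gave UQCRC1 -0.34, ATP5B -0.69, ATP5A1 -0.73 and ATP5J2 -0.90, and CYCS gave 0.38, 0.94 and 0.44 for high minus untranslated in control; with OS low replicate 3 also left out, ATP5J2 gave -0.012 and CYCS the same 0.38, 0.94 and 0.44. Outside the named genes, 4 called members changed sign for high minus untranslated, NDUFAF4 and COX10 with each of the other scalings and NDUFA5 and NDUFB11 with 75th percentile scaling. The second ATP5J2 probe, called in the low pool, gave -0.88 there with 75th percentile scaling. The cause was not tested.

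Counts of members that passed moved by more than 1.5 times as follows. With 75th percentile scaling: untranslated 0 higher and 0 lower, low 0 and 6, high 0 higher, control high minus untranslated 16 lower, high minus low 25 lower, shift 0 and 0. With that scaling and OS low replicate 3 left out: untranslated 5 lower, low 0 higher, high 1 and 1, control high minus untranslated 30 higher, shift 4 and 2. With only that array left out: untranslated 17 lower, low 3 and 1, high 20 higher. Normexp gave 5 and quantile normalization over all probes 4 higher in the high pool, and ANOVA without moderation 18 there and 2 negative shifts. Averaging control untranslated replicates 1 and 2 gave 0 negative shifts, and left 11 of 14 calls in the untranslated, 7 of 8 in the low and 6 of 8 in the high pool. Leaving out each array in turn gave (higher, then lower) 0 to 0 and 1 to 1 in total RNA, 3 to 3 and 8 to 11 in the untranslated, 1 to 6 and 1 to 6 in the low and 2 to 18 and 0 to 0 in the high pool, 15 to 17 and 31 to 33 for high minus untranslated, 9 to 10 and 39 to 39 for high minus low, and 11 to 27 and 0 to 1 for the shift. In these fits the catalog shares were 2.17 to 2.48% and 1.55 to 2.16% in total RNA. They were 12.1 to 14.1% and 10.5 to 14.2% in the untranslated pool, and 2.5 to 8.6% and 2.33 to 21.2% in the low pool. The high pool had 2.11 to 3.43% and 1.45 to 2.38%. High minus untranslated had 39.1 to 40.5% and 28.4 to 30.7%, and high minus low 20.5 to 22.4% and 21.6 to 24%. For the shift they were 4.63 to 8.66% and 5.81 to 7.88%.

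Correlations of same-number deviations ran from -0.15 to 0.20, and no comparison had all 3 above 0.1, so the number was not taken as a pairing; same-number arrays share a slide except in control untranslated. With the replicate block there were 3 higher and 10 lower in the untranslated pool, against 15.9 and 15.6% of the catalog probes. The low pool had 5 and 2, against 4.61 and 5.41%, and the high pool 8 and 0, against 3.57 and 2.83%. High minus untranslated had 17 and 32, against 42.5 and 31.3%, and high minus low 11 and 40, against 25.2 and 25.6%. The shift had 21 and 1, against 7.93 and 7.99%. With this block or with slide as a block, 1 probe of SDHA (untranslated) and COX18 (low) no longer passed. The replicate block also lost NDUFB8 and gained NDUFA6 for the shift; the slide block lost SDHAP1 (adjusted p = 0.0515) for high minus low and gained NDUFA6 (shift) and another SDHA probe (untranslated). Every sample correlated best with its own number only for control high minus low.

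Limits: levels are relative within a pool, probes near background have only bounds, the labels give control untranslated replicates 1 and 2 the same number (SD of their log2 difference 0.938, other pairs of that group 0.929 and 0.995), and of the calls 6 of 8 in the low pool, 7 of 8 in the high pool, 11 of 22 for the shift and 5 of 14 in the untranslated pool were lost without at least 1 array.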
